A study of Mus musculus with 20 samples.

Results

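This report covers the genes of the matrix metalloproteinases, the ADAM and ADAMTS proteinases, the ADAMTS-like proteins and the tissue inhibitors of metalloproteinases in mouse embryonic fibroblasts exposed to actinonin. Members were found by symbol: a gene counted if its symbol is Mmp, Adam, Adamts, Adamtsl or Timp followed by a number and any letters. Under this rule no measured value decided whether a gene counted, but the families were chosen with earlier results of these data known. The arrays carried probes for 83 such genes among 20145 genes with a symbol: 34 Adam, 19 Adamts, 4 Adamtsl, 22 Mmp and 4 Timp genes. Of the 83 genes, 51 were tested because a probe read well above its local background in at least 4 of the 20 samples: 19 Adam, 14 Adamts, 4 Adamtsl, 10 Mmp and all 4 Timp genes.

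The cells were mouse embryonic fibroblasts of Balb/c background, grown in serum-containing medium with uridine. Treated cells received 150 µM actinonin for 6, 24, 48 or 72 h, and control cells received the ethanol carrier at 3 µl/ml and are labelled 0 h. Each of the 5 groups had 4 samples described as independent, and each sample pooled the RNA of 4 plates. Within each group 2 samples were labelled with Cy3 and 2 with Cy5, and the 20 samples lay in pairs on 10 two-colour Agilent arrays. The titles number the samples 1 and 2 within each dye, and whether equal numbers across the dyes mark the same cells was not tested. All the cells share strain and medium, and the labels do not say how long control cells were in culture, so time in culture and time on actinonin cannot be told apart.

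Matrix metalloproteinases are secreted or membrane-bound zinc enzymes that cut collagens, gelatins and other matrix proteins. ADAMs are membrane proteins that often release the outer part of other membrane proteins, ADAMTS enzymes are secreted and cut proteoglycans and procollagens, and ADAMTS-like proteins resemble them but lack the protease domain. TIMPs bind the active site of these enzymes and inhibit them to differing degrees, and fibroblasts are a main source of many of them. Actinonin is a hydroxamate that inhibits peptide deformylase, and hydroxamates bind the zinc of metalloproteinases. The arrays measured RNA, so they say nothing of enzyme activity.

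Sample levels of a gene below are normalized log2 intensities of its brightest probe, with the fitted dye difference averaged out and the fitted slide difference removed. Differences between samples on an array keep the dye difference. Summed marker intensities are not in log2 and keep both the dye and the slide difference. Control and 6 h sums thus come from both slides and later ones from a single slide. Changes are log2 differences ± SE from limma over all 20 samples, a change is called at a Benjamini-Hochberg adjusted p under 0.05 over 24250 genes and unnamed transcripts. The p-values reflect sample-to-sample spread alone. Each treated time was compared with the same 4 controls, so the 4 comparisons with the control are not independent of each other. In whole cultures, fewer cells of a kind and less RNA per cell cannot be told apart.

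Between 50.8% and 70.5% of spots read well above background in a sample, and the 2 highest shares came from the array that held a control and a 48 h sample. The 2 arrays of slide 1 held control and 6 h samples, read with another software version than the 8 arrays of slide 2. Control replicates 1 of both dyes lay on slide 1. Control replicates 2 of both dyes lay on slide 2 with all 24, 48 and 72 h samples. The slide 1 controls thus enter the later comparisons only through the fitted slide term, which also shifts their sample values. Control Cy3 replicate 2 lay on the array with the highest shares. The 24 h and 72 h samples shared arrays only with each other, so their comparison with the control rests on scaling between arrays. The change at 6 h differed between the slides for 0 of the 51 genes (limma, lowest adjusted p of 1; 0.0289% of all features). Fibroblast markers were well above background for 9 or 10 of 10 genes in every sample. Of 10 macrophage and leukocyte markers, 3 to 6 were well above background in a sample. For endothelial markers this was 2 to 4 of 6, for epithelial markers 3 to 6 of 7, and for chondrocyte and osteoblast markers 4 to 7 of 7. Ptprc, S100a9, Cdh5 and Krt8 from these lists were well above background in none. The markers thus do not settle which other cell types were present.

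Expression of these genes moved in both directions, and more of them fell than rose until 48 h. At 6 h, 12 of the 51 genes were called, 3 higher and 9 lower, a share of 23.5% beside 24.8% of all features (13.7% higher and 11.1% lower). The 6 h count was 7 with the array as a fixed block and 7 with only the 2 groups in the fit. At 24 h, 25 genes were called, 5 higher and 20 lower, or 49% beside 40.2% (21.1% and 19.1%). At 48 h, 31 genes were called, 9 higher and 22 lower, or 60.8% beside 41.8% (21.5% and 20.3%). At 72 h, 30 genes were called, 15 higher and 15 lower, or 58.8% beside 47.8% (25.1% and 22.6%). Counted among the lower calls at 24, 48 and 72 h are Mmp3, Mmp13 and Adamts16. These were tested mainly through their control and 6 h samples, so their calls give the counts and shares no separate support. Among the 14242 tested genes with a symbol, the called shares were 31.4%, 46.4%, 49.3% and 54.6%. The members' shares lay below that background at 6 h, close to it at 24 h and 72 h and above it at 48 h. The median change of the 51 genes was -0.03, -0.1, -0.11 and -0.04 at the successive times, against 0, 0.01, 0 and 0 for all features. In all, 39 genes were called at 1 or more times, 5 at all 4 and 12 at none, and 6 changed at least 2-fold at a time at which they were called. Of the genes called, 17 were higher and 28 were lower at some time, with 6 in both counts. Such counts over several times were not made for all features, of which 24.8% to 47.8% were called at a single time. They therefore describe the members and do not set them apart from other genes.

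**Figure D1:**
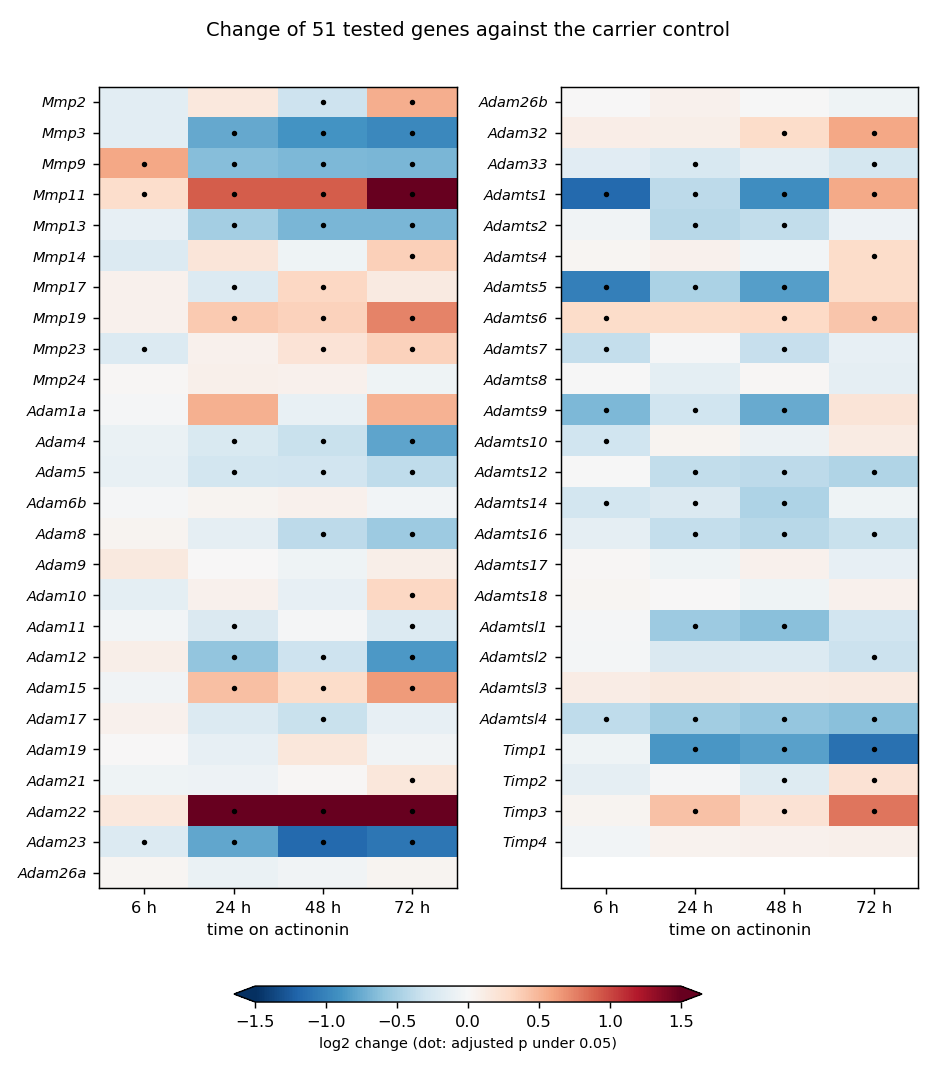
Log2 change of each of the 51 tested genes against the carrier control at 6, 24, 48 and 72 h of actinonin (columns), with red for higher, blue for lower and a dot where the adjusted p was under 0.05. Adam22 and Mmp11 are the darkest red rows from 24 h on, Adamts1, Adamts5 and Adamts9 are blue at 6 and 48 h but not at 72 h, and Timp1 and Timp3 go opposite ways.

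Mmp11 encodes stromelysin-3, a secreted enzyme of stromal cells that is activated inside the cell by furin. Mmp11 read 13.05, 13.09, 13.18 and 13.21 in the controls and 13.36, 13.39, 13.41 and 13.41 at 6 h. It read 13.95, 14.06, 14.06 and 14.09 at 24 h, 13.96, 13.97, 14.13 and 14.13 at 48 h, and 14.60, 14.61, 14.63 and 14.75 at 72 h. Every treated sample lay above every control, and the 72 h samples lay above all others, while the 24 h and 48 h samples overlapped. Mmp11 rose by 0.26 ± 0.05 at 6 h (limma, adjusted p = 0.000879), 0.91 ± 0.06 at 24 h, 0.91 ± 0.06 at 48 h and 1.52 ± 0.06 at 72 h (adjusted p = 2.35e-12). Its other probe gave 0.27, 1.00, 0.97 and 1.60 at the same times. On the 4 arrays that held a 72 h beside a 24 h sample, Mmp11 was higher at 72 h by 0.36 to 0.84.

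Mmp19, another secreted enzyme, rose later and less. Mmp19 read 7.67, 7.86, 8.04 and 8.06 in the controls and 7.90, 7.95, 7.99 and 8.06 at 6 h. It read 8.25, 8.27, 8.35 and 8.35 at 24 h, 8.15, 8.25, 8.28 and 8.38 at 48 h, and 8.51, 8.61, 8.69 and 8.82 at 72 h. Control and 6 h samples overlapped, and all samples from 24 h on lay above them. The rise was 0.39 ± 0.09 at 24 h (limma, adjusted p = 0.0022), 0.35 ± 0.08 at 48 h (adjusted p = 0.00176) and 0.74 ± 0.09 at 72 h (adjusted p = 2.7e-06). The lowest control, Cy3 replicate 2, carries part of these values: without it the rise was 0.25 at 24 h, still called, and 0.21 at 48 h, no longer called (adjusted p = 0.0586).

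**Figure D2:**
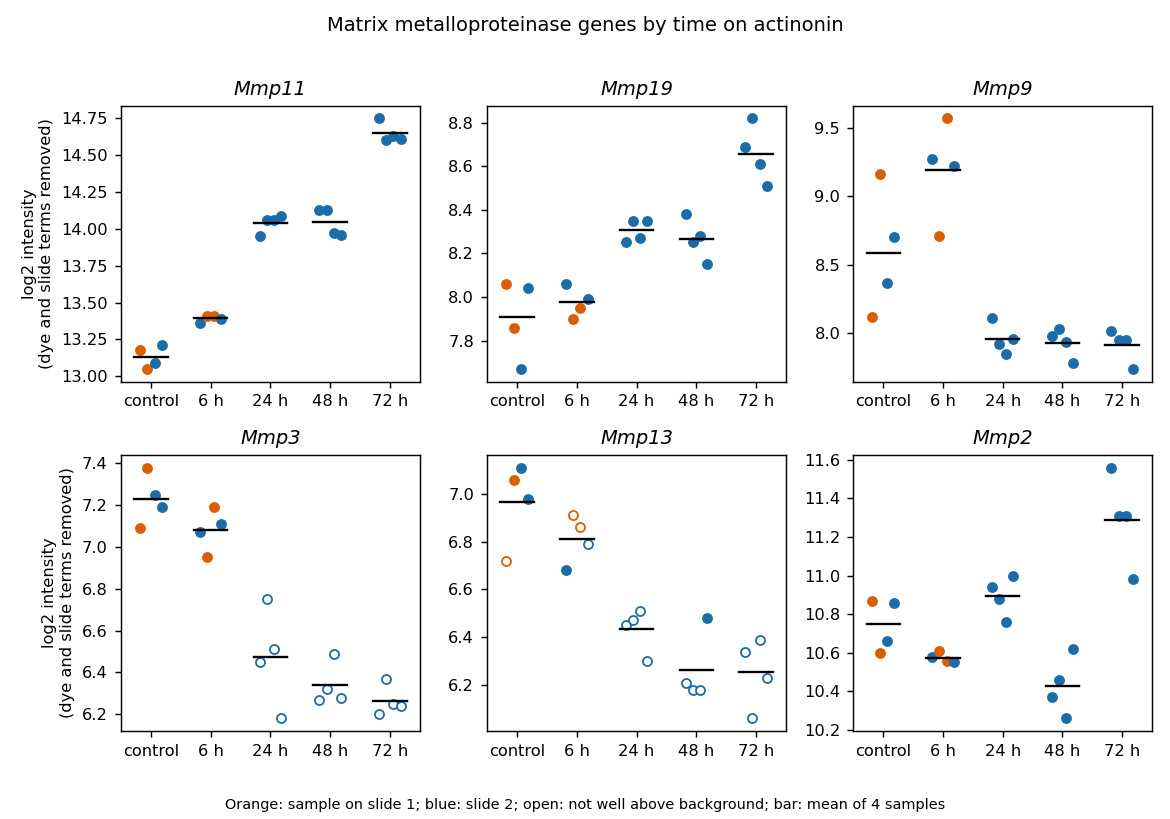
Levels of 6 Mmp genes in each sample (y axis, log2 intensity with dye and slide terms removed) by group (x axis), with a bar at the mean of 4 samples, colour for the slide and open points for samples not well above background. Mmp11 climbs to 14.60 and more at 72 h, Mmp9 is highest at 6 h, Mmp3 is open in all samples from 24 h on, and Mmp2 is lowest at 48 h and highest at 72 h.

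Mmp9, the larger gelatinase, was highest at 6 h and lower than the controls later. Mmp9 read 8.12, 8.37, 8.70 and 9.16 in the controls and 8.71, 9.22, 9.27 and 9.57 at 6 h. It read 7.85, 7.92, 7.96 and 8.11 at 24 h, 7.78, 7.94, 7.98 and 8.03 at 48 h, and 7.74, 7.95, 7.95 and 8.02 at 72 h. The controls spread widely and overlapped the 6 h samples, but all 12 later samples lay below every control. The value at 6 h was 0.58 ± 0.15 above the controls (limma, adjusted p = 0.00792), and this call was lost without control Cy3 replicate 1 (0.41, adjusted p = 0.0648), without control Cy3 replicate 2 (0.51, adjusted p = 0.0507) and with only the control and 6 h samples in the fit (0.6, adjusted p = 0.123). Later changes were -0.64 ± 0.18 at 24 h, -0.67 ± 0.16 at 48 h and -0.68 ± 0.18 at 72 h (adjusted p = 0.00849, 0.00241 and 0.00429), and with only the 2 groups in the fit the 24 h and 72 h calls were lost (adjusted p = 0.0595 and 0.0527). From 6 h to 24 h Mmp9 fell by 1.22 ± 0.18, and on the 2 arrays that held a 48 h beside a 6 h sample the difference was -1.29 and -1.23.

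Mmp9 is also a gene of leukocytes, and of 10 macrophage and leukocyte markers on the array 5 were tested. Of these 0 were called at 6 h, 3 were lower at 24 h, 2 at 48 h and 2 at 72 h, and none was called higher. The called shares were 0%, 60%, 40% and 40%, beside 24.8%, 40.2%, 41.8% and 47.8% of all features. Cd14 changed by -0.71 ± 0.08 at 24 h, -0.96 ± 0.08 at 48 h and -1.35 ± 0.08 at 72 h. Between 3 and 6 of the 10 were well above background in a sample, with a summed intensity of 32728 to 46461 in the controls, 31599 to 44643 at 6 h, 33651 to 35385 at 24 h, 35676 to 42176 at 48 h and 34681 to 38317 at 72 h, and Ptprc and S100a9 were well above it in none. Their part in the Mmp9 values was not tested. The sums keep the dye and slide differences.

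Mmp3 (stromelysin-1) and Mmp13 (a collagenase) fell to or near background. They lie in a run of 7 Mmp genes on chromosome 9, in the order Mmp13, Mmp12, Mmp1b, Mmp3, Mmp1a, Mmp10 and Mmp8, of which only these 2 could be tested. Their upstream windows are shown because both fell, and because both hold the letters of an AP-1 motif, TGANTCA, and of a TATA box, TATAAA, which are in capitals. The windows are the 250 bases before the start of each gene in RefSeq on GRCm38.p6, 5′ to 3′ on the gene's strand, at chr9:7445572-7445821 (+) for Mmp3 and chr9:7272264-7272513 (+) for Mmp13.
Mmp3: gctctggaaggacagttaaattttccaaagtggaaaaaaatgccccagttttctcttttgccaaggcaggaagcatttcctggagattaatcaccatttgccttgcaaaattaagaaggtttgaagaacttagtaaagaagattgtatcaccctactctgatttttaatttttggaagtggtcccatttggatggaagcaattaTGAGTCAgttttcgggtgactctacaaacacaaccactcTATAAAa
Mmp13: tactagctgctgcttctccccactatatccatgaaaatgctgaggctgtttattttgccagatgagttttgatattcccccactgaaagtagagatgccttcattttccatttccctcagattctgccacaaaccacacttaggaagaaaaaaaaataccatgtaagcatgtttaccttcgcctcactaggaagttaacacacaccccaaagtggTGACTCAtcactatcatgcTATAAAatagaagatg
The AP-1 letters begin 46 bases before the start in Mmp3 and 35 bases before it in Mmp13. Over both strands, TGANTCA was found in 6.75% of 32851 such windows and in 8.82% of the 34 windows that matched 31 tested members, those of Mmp3, Mmp13 and Adam19. TATAAA was found in 12.4% of all windows and 14.7% of the members', the CRE letters TGACGTCA in 1.55% and 0, and the C/EBP-ATF letters TGATGNAA in 3.45% and 0. A match is a description of letters and not a site.

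Mmp3 read 7.09, 7.19, 7.25 and 7.38 in the controls and 6.95, 7.07, 7.11 and 7.19 at 6 h, well above background in all 8 samples. From 24 h on its probe was well above background in 0 of 12 samples, with readings of 6.18 to 6.75 at 24 h, 6.27 to 6.49 at 48 h and 6.20 to 6.37 at 72 h. Control and 6 h samples overlapped and every later sample lay below them. The lowest signal still well above background was taken as a ceiling. By it, Mmp3 was at least 1.6-fold lower at 24 h, 1.69-fold at 48 h and 1.68-fold at 72 h. The measured changes were -0.77 ± 0.11, -0.90 ± 0.10 and -0.97 ± 0.11 (limma, adjusted p = 1.79e-05, 5.3e-07 and 7e-07). At 6 h the change was -0.16 ± 0.09 and not called. Mmp3 passed the filter only through the control and 6 h samples, so some difference was built into its being tested. Its p-values are therefore no separate support for the fall.

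Mmp13 was fainter still, well above background in 3 controls, 1 sample at 6 h and 1 at 48 h. It read 6.72, 6.98, 7.06 and 7.11 in the controls, 6.68, 6.79, 6.86 and 6.91 at 6 h, and 6.30, 6.45, 6.47 and 6.51 at 24 h. It read 6.18, 6.18, 6.21 and 6.48 at 48 h and 6.06, 6.23, 6.34 and 6.39 at 72 h. The samples from 24 h on all lay below the controls and the 6 h samples. By the same ceiling Mmp13 was at least 1.33-fold lower at 24 h and at least 1.35-fold lower at 72 h. The measured changes at those times were -0.51 ± 0.11 and -0.69 ± 0.11 (limma, adjusted p = 0.000865 and 3.35e-05). At 48 h, where 1 sample was above background, it was -0.68 ± 0.10. Of the 5 samples that carried Mmp13 through the filter 3 were controls, so part of its fall too was built into its being tested. Its p-values are likewise no separate support for the fall.

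Mmp2, the smaller gelatinase, and Mmp14, the membrane-bound enzyme that activates pro-Mmp2 with the help of Timp2, were both higher at 72 h. Mmp2 read 10.60, 10.66, 10.86 and 10.87 in the controls, 10.55, 10.56, 10.58 and 10.61 at 6 h, and 10.76, 10.88, 10.94 and 11 at 24 h. It read 10.26, 10.37, 10.46 and 10.62 at 48 h and 10.98, 11.31, 11.31 and 11.56 at 72 h. Only the 72 h samples lay apart from the controls. Mmp2 rose by 0.55 ± 0.11 at 72 h (limma, adjusted p = 0.000583), and the lower value at 48 h, -0.31 ± 0.10 (adjusted p = 0.0179), was no longer called without control Cy5 replicate 2 (-0.23, adjusted p = 0.157), 48 h Cy3 replicate 1 (-0.28, adjusted p = 0.0638) or 48 h Cy3 replicate 2 (-0.26, adjusted p = 0.0594). Between 48 h and 72 h it rose by 0.87 ± 0.10 (adjusted p = 1.9e-05). Mmp14 was 0.36 ± 0.10 higher at 72 h (adjusted p = 0.00812), lost without control Cy3 replicate 2 (0.28, adjusted p = 0.0572), and rose by 0.43 ± 0.09 between 48 h and 72 h.

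The remaining 3 tested Mmp genes moved less. Mmp17, a membrane-anchored enzyme, changed by -0.20 ± 0.06 at 24 h (limma, adjusted p = 0.0131), lost with no scaling between arrays (-0.17, adjusted p = 0.2), and by 0.31 ± 0.05 at 48 h (adjusted p = 9.73e-05). Mmp23 was -0.21 ± 0.06 at 6 h, 0.21 ± 0.06 at 48 h and 0.34 ± 0.07 at 72 h (adjusted p = 0.0103, 0.0105 and 0.000526). Its 6 h call was lost without control Cy3 replicate 1 or 6 h Cy5 replicate 1 (adjusted p = 0.0611 and 0.055), and its 48 h call without control Cy3 replicate 2 (adjusted p = 0.0958), and other settings ended the former 4 times and the latter 2 times. Mmp24 changed by -0.06 to 0.08 and was called at no time. It was well above background in only 7 of 20 samples and in 0 at 72 h, so this does not show a steady level. Over the 10 tested Mmp genes the calls were 2 higher and 1 lower at 6 h, 2 and 4 at 24 h, 4 and 4 at 48 h, and 5 and 3 at 72 h. The called shares were 30%, 60%, 80% and 80%, beside 24.8%, 40.2%, 41.8% and 47.8% of all features. The lower calls at 24, 48 and 72 h include Mmp3 and Mmp13, so part of these counts and shares was built in by the filter.

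Among the ADAM genes, Adam22 changed most. It encodes a membrane protein without a working protease site that is known as a receptor for secreted LGI proteins at synapses. Adam22 read 6.65, 6.73, 6.75 and 6.86 in the controls and 6.88, 6.89, 6.95 and 7.0 at 6 h. It read 8.58, 8.60, 8.63 and 8.67 at 24 h, 8.10, 8.31, 8.36 and 8.44 at 48 h, and 9.14, 9.31, 9.37 and 9.57 at 72 h. The groups did not overlap, and their order was control, 6 h, 48 h, 24 h and 72 h. The change was 0.16 ± 0.07 at 6 h, not called (limma, adjusted p = 0.126), 1.86 ± 0.09 at 24 h, 1.54 ± 0.08 at 48 h and 2.59 ± 0.09 at 72 h (adjusted p = 3.82e-11, 5.55e-11 and 3.17e-13). On the 2 arrays that held a 48 h beside a control sample, the difference was 1.4 and 1.5. A probe for another Adam22 transcript, well above background in 8 samples, gave 0.59 ± 0.19 at 24 h and 0.63 ± 0.19 at 72 h, both called, and 0.30 ± 0.17 at 48 h, not called.

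Adam23, a close relative that also lacks a working protease site, went the other way on the brighter of its 2 probes. Adam23 read 10.70, 10.71, 10.72 and 10.87 in the controls, 10.48, 10.50, 10.57 and 10.58 at 6 h, and 9.84, 9.98, 10.01 and 10.05 at 24 h. It read 9.51, 9.54, 9.62 and 9.64 at 48 h and 9.61, 9.67, 9.67 and 9.70 at 72 h. The control, 6 h and 24 h samples were separate in descending order, and the 48 h and 72 h samples overlapped at the bottom. The changes were -0.21 ± 0.05, -0.78 ± 0.06, -1.17 ± 0.05 and -1.08 ± 0.06 (limma, adjusted p = 0.00433, 1.31e-08, 1.35e-11 and 8.89e-11), and the 6 h call was lost in 5 other settings (-0.22 to -0.13, adjusted p = 0.0505 to 0.137). The second probe, of the same transcript record and well above background in 20 samples, gave -0.06, 0.03, -0.16 and -0.08 and was called at no time, so the fall was seen by 1 of 2 probes.

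**Figure D3:**
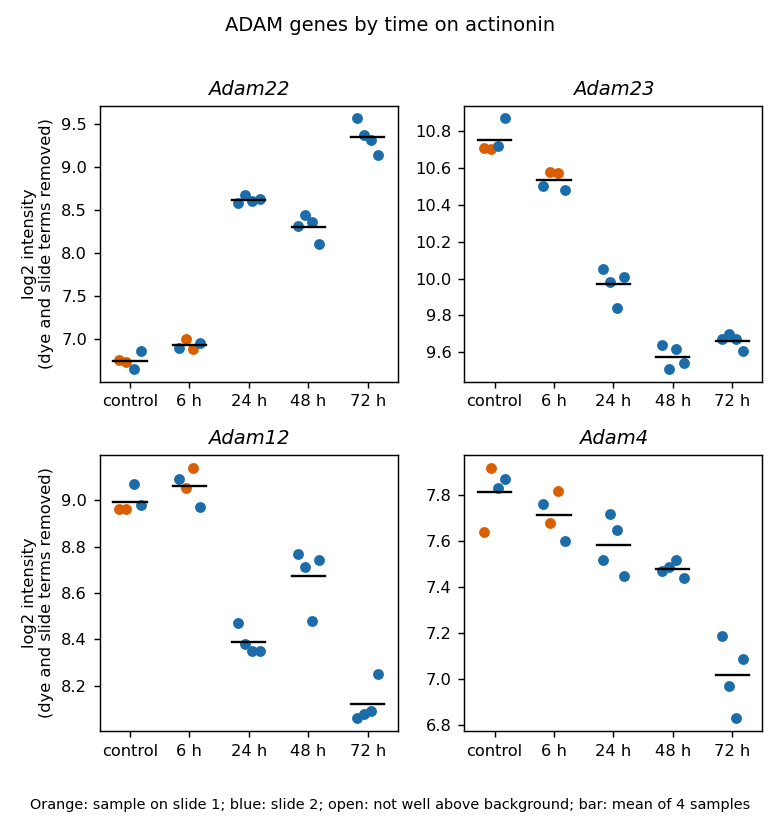
Levels of 4 Adam genes in each sample (y axis, log2 intensity with dye and slide terms removed) by group (x axis), drawn as for the Mmp genes. Adam22 lies above 8 in every sample from 24 h on and below 7.1 before, Adam23 falls to between 9.51 and 9.70 at 48 and 72 h, and Adam12 and Adam4 are lowest at 72 h.

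Adam12, which cuts growth factor precursors and binding proteins, was lower from 24 h. Adam12 read 8.96, 8.96, 8.98 and 9.07 in the controls, 8.97, 9.05, 9.09 and 9.14 at 6 h, and 8.35, 8.35, 8.38 and 8.47 at 24 h. It read 8.48, 8.71, 8.74 and 8.77 at 48 h and 8.06, 8.08, 8.09 and 8.25 at 72 h. Control and 6 h samples overlapped and all later samples lay below them, with the 48 h samples between the controls and the 24 h samples. Its changes were -0.59 ± 0.07 at 24 h, -0.31 ± 0.06 at 48 h and -0.86 ± 0.07 at 72 h (limma, adjusted p = 3.06e-06, 0.000663 and 1.74e-08). Its second probe that was well above background in 20 samples gave -0.60, -0.63 and -0.91, so the 48 h value was larger on that probe, and another, faint probe gave -0.19, -0.17 and -0.29.

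Adam4, a gene best known from testis, was well above background in every sample here. Adam4 read 7.64, 7.83, 7.87 and 7.92 in the controls, 7.60, 7.68, 7.76 and 7.82 at 6 h, and 7.45, 7.52, 7.65 and 7.72 at 24 h. It read 7.44, 7.47, 7.49 and 7.52 at 48 h and 6.83, 6.97, 7.09 and 7.19 at 72 h. The 72 h samples lay below all others, and the 24 h samples overlapped the controls. It fell by 0.79 ± 0.09 at 72 h (limma, adjusted p = 5.33e-07) and by 0.33 ± 0.08 at 48 h (adjusted p = 0.0016). The 24 h value, -0.23 ± 0.09 (adjusted p = 0.0397), lost its call in 6 of the fits that left out 1 sample, namely control Cy3 replicate 2, control Cy5 replicates 1 and 2, 6 h Cy3 replicate 1, 24 h Cy3 replicate 1 and 24 h Cy5 replicate 2 (-0.22 to -0.20, adjusted p = 0.0628 to 0.153), and in 6 other settings.

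Adam10 and Adam17 encode the 2 main sheddases, which release Notch, APP and growth factor ectodomains. Adam10 was higher at 72 h by 0.31 ± 0.07 (limma, adjusted p = 0.00147), with samples of 12.99, 13.00, 13.02 and 13.07 against 12.64, 12.69, 12.76 and 12.78 in the controls. Adam17 changed by -0.33 ± 0.07 at 48 h (adjusted p = 0.00115), with -0.37 ± 0.09 from its other probe. Adam15, which has an active protease domain and binds integrins, rose by 0.45 ± 0.05 at 24 h, 0.28 ± 0.05 at 48 h and 0.64 ± 0.05 at 72 h (adjusted p = 3.62e-06, 0.000121 and 2.57e-08). Its samples read 13.76, 13.87, 13.88 and 13.89 in the controls and 14.46, 14.47, 14.49 and 14.52 at 72 h, with no overlap. Adam8 fell by 0.39 ± 0.09 at 48 h and by 0.55 ± 0.10 at 72 h (adjusted p = 0.00118 and 0.00013), and its 48 h call was lost without the array that held a control and a 48 h sample with the most spots above background (-0.25, adjusted p = 0.0683).

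Of the other Adam genes, Adam32 rose by 0.27 ± 0.06 at 48 h and 0.58 ± 0.07 at 72 h (limma, adjusted p = 0.000802 and 8.17e-07). Adam5, its neighbour on chromosome 8, fell by 0.27 ± 0.07 at 24 h, 0.29 ± 0.06 at 48 h and 0.38 ± 0.07 at 72 h (adjusted p = 0.00559, 0.00114 and 0.000259), and its other probe gave -0.33, -0.29 and -0.48. Adam9, next in that run, was called at no time. Adam11 was -0.22 ± 0.06 at 24 h and -0.21 ± 0.06 at 72 h (adjusted p = 0.00873 and 0.00843), but a probe for another of its transcripts gave 0.02 and -0.07, and with no slide term the values were -0.02 and -0.01. Adam33 was -0.24 ± 0.08 at 24 h and -0.26 ± 0.08 at 72 h (adjusted p = 0.0268 and 0.0154). Its other probe, well above background in 20 samples, gave -0.14 at both times and was not called. Each of the 2 calls of the brighter probe was lost in 4 other settings. The 24 h call of Adam33 was lost without 24 h Cy3 replicate 2, 24 h Cy5 replicate 2, control Cy3 replicate 2 or control Cy5 replicate 2 (-0.26 to -0.18, adjusted p = 0.0556 to 0.168), and its 72 h call without control Cy3 replicate 2 (-0.20, adjusted p = 0.116). Adam21 was 0.17 ± 0.06 higher at 72 h (adjusted p = 0.0279), a call lost without control Cy3 replicate 2, 6 h Cy3 replicate 1, 72 h Cy3 replicate 2 or 72 h Cy5 replicate 1 (0.13 to 0.16, adjusted p = 0.0511 to 0.164). Adam21 was 0.09 with no scaling between arrays and 0.11 with no slide term (adjusted p = 0.492 and 0.206), and it was not called in 3 further settings. Adam19, Adam26a, Adam26b, Adam6b and Adam1a were called at no time, and Adam1a varied much between samples (SE of 0.27 to 0.33, against 0.10 to 0.13 for Adam19). Adam26a was well above background in only 6 of 20 samples, so its lack of a call does not show a steady level. Over the 19 tested Adam genes the calls were 0 higher and 1 lower at 6 h, 2 and 6 at 24 h, 3 and 6 at 48 h, and 5 and 7 at 72 h. The called shares were 5.26%, 42.1%, 47.4% and 63.2%, beside 24.8%, 40.2%, 41.8% and 47.8% of all features.

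The ADAMTS genes held the largest early changes. Adamts1, Adamts5 and Adamts9 encode proteoglycan-cutting enzymes, Adamts5 being a main aggrecanase. Adamts1 and Adamts5 are neighbours on chromosome 16. All 3 were called lower than the controls at 6, 24 and 48 h, and at 72 h only Adamts1 was called, higher. From 24 h to 48 h Adamts1 fell by 0.54 ± 0.13 and Adamts9 fell by 0.46 ± 0.10 (limma, adjusted p = 0.0115 and 0.00727), calls that were lost with no slide term (-0.40 and -0.39, adjusted p = 0.301 and 0.0729) and, for Adamts1, with no scaling between arrays (adjusted p = 0.0624). Adamts5 was -0.36 ± 0.12 over that step and not called (adjusted p = 0.0689).

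Their upstream windows are shown, as far as RefSeq's table holds them, because these genes were called lower at the same 3 times: that of Adamts1 at chr16:85803114-85803363 (-) and that of Adamts9 at chr6:92943535-92943784 (-), cut and searched as for Mmp3. The capitals mark TATAAA in Adamts1, which begins 32 bases before the start, and none of the 4 motifs was found in the Adamts9 window. Adamts14 was likewise called lower at these 3 times, so the pattern is not particular to the genes shown. The Adamts14 window also held none of the 4 motifs and is left out here.
Adamts1: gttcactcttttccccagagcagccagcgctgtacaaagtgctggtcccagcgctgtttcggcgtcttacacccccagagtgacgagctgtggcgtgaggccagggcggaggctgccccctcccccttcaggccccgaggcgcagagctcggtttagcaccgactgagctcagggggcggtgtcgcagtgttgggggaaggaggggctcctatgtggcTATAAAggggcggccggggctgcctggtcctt
Adamts9: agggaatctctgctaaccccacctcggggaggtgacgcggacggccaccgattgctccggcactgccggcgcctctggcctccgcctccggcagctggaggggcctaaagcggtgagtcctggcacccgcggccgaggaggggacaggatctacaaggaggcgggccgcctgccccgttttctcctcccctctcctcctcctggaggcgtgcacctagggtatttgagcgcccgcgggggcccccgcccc

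Adamts1 read 12.47, 12.58, 12.59 and 12.79 in the controls, 11.28, 11.44, 11.50 and 11.57 at 6 h, and 11.85, 12.15, 12.43 and 12.47 at 24 h. It read 11.51, 11.65, 11.69 and 11.88 at 48 h and 12.91, 13.18, 13.18 and 13.47 at 72 h. The 6 h and 48 h samples lay below all controls, the 24 h samples lay at or under the lowest control, and the 72 h samples lay above all others. The change was -1.17 ± 0.12 at 6 h, -0.39 ± 0.14 at 24 h, -0.93 ± 0.13 at 48 h and 0.57 ± 0.14 at 72 h (limma, adjusted p = 1.04e-06, 0.0363, 8.86e-06 and 0.00268). Side by side on an array, Adamts1 differed by -1.25 and -1.18 between 6 h and control, by -0.96 and -0.87 between 48 h and control, and by 0.72 to 1.34 between 72 h and 24 h on 4 arrays. Between 48 h and 72 h it rose by 1.5 ± 0.13 (adjusted p = 9.85e-07). The 24 h call was lost in 8 of the fits that left out 1 sample (-0.41 to -0.28, adjusted p = 0.0502 to 0.125): control Cy3 replicates 1 and 2 and Cy5 replicate 2, 6 h Cy3 replicates 1 and 2 and Cy5 replicate 2, and 24 h Cy3 replicate 2 and Cy5 replicate 1. The 72 h rise depended on the slide term, without which it was 0.29 (adjusted p = 0.25).

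Adamts5 read 8.69, 8.73, 8.78 and 8.83 in the controls, 7.45, 7.78, 7.84 and 7.98 at 6 h, and 8.06, 8.26, 8.43 and 8.44 at 24 h. It read 7.81, 7.93, 7.95 and 8.07 at 48 h and 8.68, 9.09, 9.10 and 9.32 at 72 h. All samples at 6, 24 and 48 h lay below the controls, and 1 of the 72 h samples lay at the level of the lowest control. It changed by -1.02 ± 0.11 at 6 h, -0.47 ± 0.14 at 24 h and -0.83 ± 0.12 at 48 h (limma, adjusted p = 3.14e-06, 0.0098 and 1.98e-05), and the value at 72 h, 0.28 ± 0.14, was not called (adjusted p = 0.103). Its other probe gave -0.82, -0.63, -0.85 and 0.01. The rise between 48 h and 72 h was 1.11 ± 0.12 (adjusted p = 9.92e-06).

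Adamts9 read 9.31, 9.37, 9.52 and 9.54 in the controls, 8.71, 8.72, 8.81 and 8.85 at 6 h, and 8.85, 9.03, 9.30 and 9.36 at 24 h. It read 8.63, 8.64, 8.67 and 8.78 at 48 h and 9.36, 9.64, 9.70 and 9.79 at 72 h. The 6 h and 48 h samples lay below all controls, and the 24 h and 72 h samples overlapped them from below and above. The change was -0.67 ± 0.09 at 6 h and -0.76 ± 0.10 at 48 h (limma, adjusted p = 3.18e-05 and 5.26e-06), 0.19 ± 0.11 at 72 h, not called (adjusted p = 0.178), and 0.94 ± 0.10 from 48 h to 72 h (adjusted p = 6.39e-06). The 24 h value, -0.30 ± 0.11 (adjusted p = 0.0379), lost its call in 7 of the fits that left out 1 sample (-0.34 to -0.22, adjusted p = 0.0522 to 0.161): control Cy3 replicates 1 and 2 and Cy5 replicate 2, 6 h Cy3 replicate 2 and Cy5 replicate 2, and 24 h Cy3 replicate 2 and Cy5 replicate 1.

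**Figure D4:**
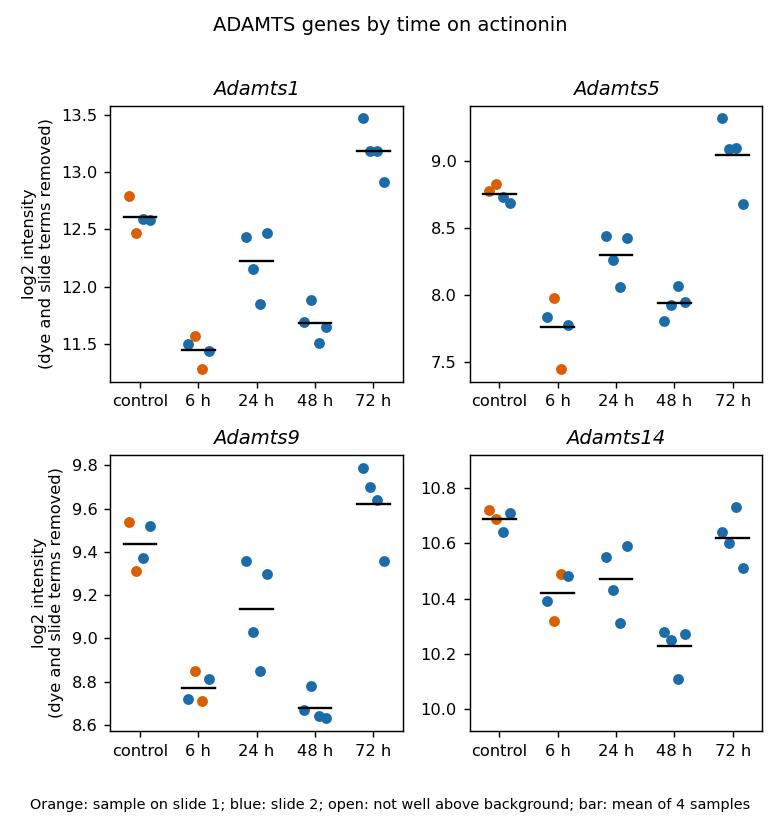
Levels of 4 Adamts genes in each sample (y axis, log2 intensity with dye and slide terms removed) by group (x axis), drawn as for the Mmp genes. Adamts1, Adamts5 and Adamts9 are low at 6 and 48 h, and their 72 h means lie highest, while Adamts14 is lowest at 48 h.

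Adamts2 and Adamts14 encode procollagen N-proteinases, which trim the ends of fibrillar procollagens. Adamts14 read 10.64, 10.69, 10.71 and 10.72 in the controls, 10.32, 10.39, 10.48 and 10.49 at 6 h, and 10.31, 10.43, 10.55 and 10.59 at 24 h. It read 10.11, 10.25, 10.27 and 10.28 at 48 h and 10.51, 10.60, 10.64 and 10.73 at 72 h. The 48 h samples lay below all others, and only the 72 h samples overlapped the controls. Adamts14 changed by -0.27 ± 0.06 at 6 h, -0.22 ± 0.07 at 24 h and -0.46 ± 0.07 at 48 h (limma, adjusted p = 0.00325, 0.0217 and 1.35e-05). Its 24 h call was lost without control Cy5 replicate 2, 24 h Cy3 replicate 2 or 24 h Cy5 replicate 1 (-0.22 to -0.17, adjusted p = 0.0544 to 0.0777), and its 6 h call within slide 2 (-0.21, adjusted p = 0.108). Adamts2 was -0.42 ± 0.09 at 24 h and -0.37 ± 0.08 at 48 h (adjusted p = 0.00078 and 0.000617), but its other probe gave 0.13 and 0.09, not called, and the mean of both probes was -0.14 at either time, not called.

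The other Adamts genes moved by less than 2-fold at every time. Adamts7 was -0.36 ± 0.09 at 6 h and -0.34 ± 0.09 at 48 h (limma, adjusted p = 0.00501 and 0.00736), and the 48 h call was lost without control Cy5 replicate 2 (-0.19) or 48 h Cy5 replicate 2 (-0.23), and the 6 h call with only the 2 groups in the fit (adjusted p = 0.0674). Adamts10 was -0.30 ± 0.06 at 6 h (adjusted p = 0.00195), not called with no slide term or with the array as a fixed block (adjusted p = 0.0633 and 0.0759), and Adamts4, an aggrecanase, was 0.28 ± 0.06 higher at 72 h (adjusted p = 0.00103). Adamts12 was -0.37 ± 0.08, -0.39 ± 0.08 and -0.45 ± 0.08 at 24, 48 and 72 h (adjusted p = 0.00164, 0.000324 and 0.000238), whereas its other probe, which varied far more, gave 0.45 ± 0.47, -0.26 ± 0.42 and 0.45 ± 0.47. Adamts16 was well above background in 2 of 4 controls, 2 samples at 6 h, 1 at 48 h and 0 at 24 h and 72 h. At these last 2 times it was at least 1.13-fold and 1.1-fold lower. The measured changes were -0.36 ± 0.11 and -0.33 ± 0.11 (limma, adjusted p = 0.0134 and 0.0174). It passed the filter mainly through control and 6 h samples, so part of this fall was built in and the p-values give it no separate support. The bounds rest on a control mean that includes 2 samples not above background. Its controls read 6.82, 6.83, 7.02 and 7.09, its 24 h samples 6.41 to 6.66 and its 72 h samples 6.47 to 6.73, and without control Cy5 replicate 2 both calls were lost (-0.26 and -0.23, adjusted p = 0.114 and 0.137), as they were with no slide term (-0.19 and -0.16). At 48 h Adamts16 was -0.42 ± 0.10 (adjusted p = 0.00158).

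Adamts6 was the only Adamts gene called higher before 72 h, by 0.28 ± 0.10 at 6 h, 0.30 ± 0.11 at 48 h and 0.42 ± 0.12 at 72 h (limma, adjusted p = 0.0434, 0.0312 and 0.00697). Its 6 h call was lost in 11 of the 20 fits that left out 1 sample (0.20 to 0.31, adjusted p = 0.0506 to 0.182): control Cy3 replicates 1 and 2 and Cy5 replicate 2, 6 h Cy3 replicate 1 and Cy5 replicates 1 and 2, 24 h Cy3 replicate 1 and Cy5 replicate 1, and 48 h Cy3 replicates 1 and 2 and Cy5 replicate 1. The 48 h call was lost in 5 (0.20 to 0.31, adjusted p = 0.0554 to 0.253), without 48 h Cy3 replicate 1, 48 h Cy5 replicate 1, 6 h Cy5 replicate 2, control Cy3 replicate 2 or control Cy5 replicate 2, and the 72 h call without control Cy5 replicate 2 (0.32, adjusted p = 0.0654). Adamts8, Adamts17 and Adamts18 were called at no time. Adamts17 and Adamts18 were each well above background in only 4 of 20 samples, and the Adamts17 controls ranged from 5.01 to 8.04. For these 2 genes the lack of a call does not show a steady level. Over the 14 tested Adamts genes the calls were 1 higher and 6 lower at 6 h, 0 and 7 at 24 h, 1 and 8 at 48 h, and 3 and 2 at 72 h, and between 48 h and 72 h 7 rose and 0 fell. Over all features 12.8% rose and 10.3% fell between 48 h and 72 h. Against the control, 50%, 50%, 64.3% and 35.7% of the Adamts genes were called at 6, 24, 48 and 72 h. For all features these shares were 24.8%, 40.2%, 41.8% and 47.8%. The lower Adamts calls at 24, 48 and 72 h include Adamts16, with the limit given above.

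Adamtsl genes encode secreted matrix proteins without protease activity, and those that were called were lower. Adamtsl4, known for its link to fibrillin fibres, read 11.28, 11.31, 11.36 and 11.39 in the controls, 10.87, 10.91, 10.94 and 11.04 at 6 h, and 10.74, 10.75, 10.85 and 10.91 at 24 h. It read 10.71, 10.72, 10.75 and 10.85 at 48 h and 10.61, 10.70, 10.74 and 10.77 at 72 h. Every treated sample lay below every control, and the treated groups overlapped with their neighbours in time. Its changes were -0.38 ± 0.05, -0.52 ± 0.06, -0.58 ± 0.05 and -0.63 ± 0.06 (limma, adjusted p = 1.72e-05, 2.05e-06, 9.92e-08 and 1.2e-07), and with no slide term the 24 h call was lost (-0.30, adjusted p = 0.0798).

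Adamtsl1 read 6.82, 7.10, 7.14 and 7.18 in the controls and 6.81, 7.12, 7.17 and 7.17 at 6 h, all well above background. It read 6.19, 6.48, 6.70 and 6.75 at 24 h with 2 samples above background, 6.31, 6.36, 6.52 and 6.58 at 48 h with 0 by this probe, and 6.63, 6.71, 6.78 and 7.02 at 72 h with 3. The 24 h and 48 h samples lay below all controls, and the 72 h samples overlapped them. Its other probe, too dim to be tested, was well above background in 1 sample at 48 h, so no bound is given. Adamtsl1 was -0.63 ± 0.12 at 48 h (limma, adjusted p = 0.000311) and -0.54 ± 0.13 at 24 h (adjusted p = 0.00347), a call lost with only the 2 groups in the fit (-0.43, adjusted p = 0.0515). Adamtsl2 read 6.94, 7.0, 7.10 and 7.29 in the controls and 6.67, 6.67, 6.82 and 6.84 at 72 h, a change of -0.32 ± 0.11 (adjusted p = 0.0166) that was lost without control Cy3 replicate 2 (-0.22, adjusted p = 0.151). Its 6, 24 and 48 h samples spanned 6.96 to 7.06, 6.67 to 7.02 and 6.67 to 7.16, and Adamtsl3 was called at no time.

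The TIMP genes, the inhibitors, split. Timp1, an inhibitor of most secreted Mmps, read 15.12, 15.23, 15.49 and 15.59 in the controls, 15.16, 15.25, 15.33 and 15.43 at 6 h, and 14.46, 14.48, 14.49 and 14.51 at 24 h. It read 14.42, 14.47, 14.61 and 14.65 at 48 h and 14.17, 14.24, 14.25 and 14.27 at 72 h. Control and 6 h samples overlapped, every later sample lay below them, and the 72 h samples were lowest. Timp1 fell by 0.87 ± 0.09 at 24 h, 0.82 ± 0.08 at 48 h and 1.12 ± 0.09 at 72 h (limma, adjusted p = 8.02e-07, 2.76e-07 and 1.91e-08). On the 2 arrays that held a 48 h beside a control sample the difference was -0.85 and -0.79.

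Timp3, which binds to the matrix and also inhibits ADAM and ADAMTS enzymes, went up. Timp3 read 14.86, 14.86, 14.95 and 14.96 in the controls, 14.82, 14.93, 14.95 and 15.05 at 6 h, and 15.31, 15.33, 15.35 and 15.40 at 24 h. It read 15.00, 15.11, 15.19 and 15.21 at 48 h and 15.68, 15.70, 15.71 and 15.72 at 72 h. Control, 6 h and 48 h samples followed closely, the 48 h samples lying above all controls and overlapping the 6 h samples, and the 24 h and 72 h samples lay apart above them. Timp3 rose by 0.44 ± 0.06 at 24 h, 0.22 ± 0.05 at 48 h and 0.80 ± 0.06 at 72 h (limma, adjusted p = 1.48e-05, 0.00247 and 6.18e-09).

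Timp2, the inhibitor that also takes part in pro-Mmp2 activation, depended on the probe. Timp2 read 16.50, 16.54, 16.55 and 16.70 in the controls, 16.34, 16.43, 16.44 and 16.52 at 6 h, and 16.50, 16.52, 16.55 and 16.61 at 24 h. It read 16.23, 16.36, 16.39 and 16.51 at 48 h and 16.72, 16.77, 16.82 and 16.82 at 72 h. The 72 h samples lay above all others, and the other groups overlapped the controls. The brighter probe gave -0.19 ± 0.06 at 48 h and 0.22 ± 0.07 at 72 h (limma, adjusted p = 0.0166 and 0.0152), whereas the other probe of the same transcript record, well above background in 20 samples, gave -0.62 ± 0.08 at 24 h, -0.73 ± 0.07 at 48 h and -0.82 ± 0.08 at 72 h, all called. The direction of Timp2 at 72 h was therefore not settled by these arrays. The brighter probe's 48 h call was lost without control Cy3 replicate 2 (-0.11), 48 h Cy3 replicate 2 (-0.15) or 48 h Cy5 replicate 2 (-0.18), and its 72 h call without control Cy5 replicate 2 (0.19, adjusted p = 0.0675).

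Timp4 was near background, well above it in 10 of 20 samples, and was called at no time. Timp4 read 6.59, 6.63, 6.68 and 6.68 in the controls, 6.49, 6.59, 6.66 and 6.72 at 6 h, and 6.65, 6.65, 6.71 and 6.80 at 24 h. It read 6.66, 6.68, 6.69 and 6.80 at 48 h and 6.65, 6.66, 6.79 and 6.84 at 72 h, and all groups overlapped.

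**Figure D5:**
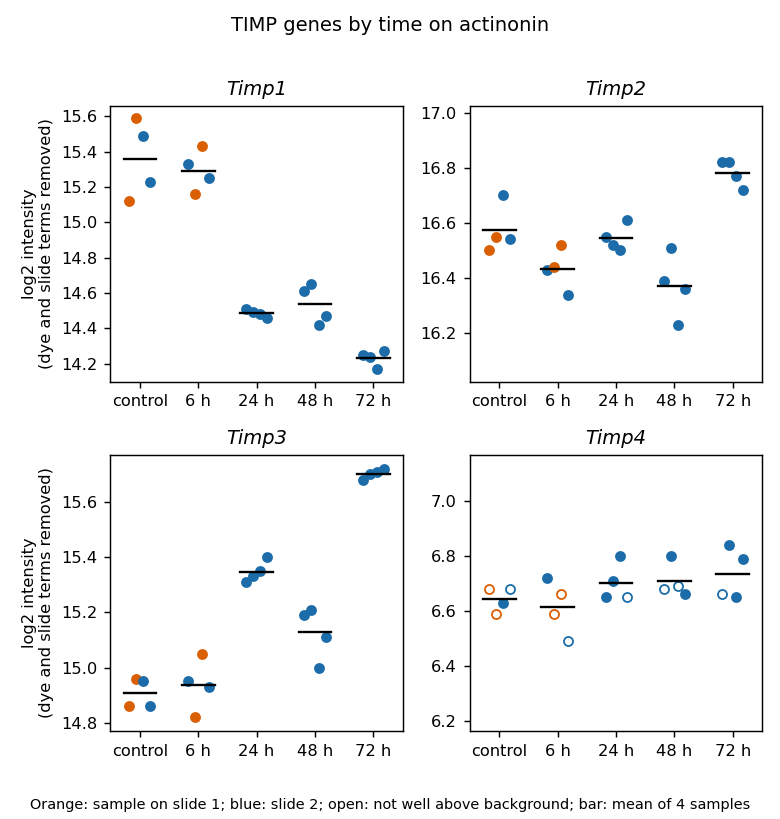
Levels of the 4 Timp genes in each sample (y axis, log2 intensity with dye and slide terms removed) by group (x axis), drawn as for the Mmp genes. Timp1 drops from above 15.1 in control and 6 h samples to between 14.17 and 14.65 later, Timp3 reaches 15.68 to 15.72 at 72 h, Timp2 is shown by its brighter probe alone, and Timp4 has many open points.

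Changes between treated times were counted in the same way. Among tested genes with a symbol, 39.2% were called between 6 h and 24 h and 14.7% between 24 h and 48 h. Of the same genes 28.2% were called between 48 h and 72 h and 25.1% between 24 h and 72 h. Between 6 h and 24 h 26 of the 51 were called, 14 higher and 12 lower, or 51% beside 32.8% of all features (16.4% in either direction). The lower ones include Mmp3 and Mmp13, which were tested mainly through control and 6 h samples. Between 24 h and 48 h 12 were called, 3 higher and 9 lower, or 23.5% beside 12.1% (5.72% higher and 6.33% lower). That count fell to 3 with no scaling between arrays and to 3 with no slide term. Between 48 h and 72 h 23 were called, 18 higher and 5 lower, or 45.1% beside 23.1% (12.8% and 10.3%). Between 24 h and 72 h, which lay side by side on 4 arrays, 22 were called, 17 higher and 5 lower, or 43.1% beside 20.4% (10.5% and 9.88%). Adam22, Mmp11, Timp3 and Adamts1 were among those higher at 72 h than at 24 h, by 0.73 ± 0.07, 0.61 ± 0.05, 0.36 ± 0.05 and 0.96 ± 0.11, and Adam4 and Adam23 among those lower, by -0.56 ± 0.07 and -0.31 ± 0.05.

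The 32 untested genes include collagenase genes and genes best known from testis: 26 were well above background in no sample, and the most seen for any was 4 samples, for Mmp28 over its 2 probes. They are Adam1b, Adam2, Adam3, Adam6a, Adam7, Adam18, Adam20, Adam24, Adam25, Adam28, Adam29, Adam30, Adam34, Adam34l and Adam39, with Adamts3, Adamts13, Adamts15, Adamts19 and Adamts20, and with Mmp1a, Mmp1b, Mmp7, Mmp8, Mmp10, Mmp12, Mmp15, Mmp16, Mmp20, Mmp21, Mmp25 and Mmp28. Of the 51 tested genes 41 were well above background in all 20 samples.

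Genes that act with these enzymes were taken from lists, described here by counts. The lists were chosen with earlier results of these data known. Of all features, 40.2% were called at 24 h, 41.8% at 48 h and 47.8% at 72 h. Of tested genes with a symbol these shares were 46.4%, 49.3% and 54.6%. They were 66.7%, 66.7% and 77.8% for the plasminogen system and 77.8%, 55.6% and 66.7% for Mmp regulators. Other zinc metallopeptidases had 37.5%, 56.2% and 43.8%, below all features at 24 h and 72 h. Of 9 tested plasminogen-system genes, whose proteases activate several Mmps, 1 was higher and 5 lower at 24 h, 1 and 5 at 48 h, and 1 and 6 at 72 h, with a median of -0.59, -0.57 and -0.73. Plat, a plasminogen activator, fell by 0.61 ± 0.11, 0.99 ± 0.10 and 0.74 ± 0.11 at those times, S100a10 fell by 0.61 ± 0.07, 0.57 ± 0.06 and 0.75 ± 0.07, and the inhibitor Serpine2 rose by 0.43 ± 0.10, 0.34 ± 0.09 and 1.08 ± 0.10. Of 9 Mmp regulators, 2 were higher and 5 lower at 24 h, 0 and 5 at 48 h, and 3 and 3 at 72 h. Furin, the convertase that activates Mmp11 and Mmp14, fell by 0.49 ± 0.05 at 24 h, Thbs1 by 1.09 ± 0.10 and Thbs2 by 0.65 ± 0.07. Of 16 other zinc metallopeptidases 6 were higher and 0 lower at 24 h, 4 and 5 at 48 h, and 6 and 1 at 72 h. At 24 h and 72 h Ecel1 was at 2.69 ± 0.11 and 2.72 ± 0.11, Ece2 at 0.53 ± 0.09 and 0.86 ± 0.09, and Nrd1 at 0.29 ± 0.05 and 0.46 ± 0.05.

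Among substrates, 0 of 10 interstitial collagen genes were higher and 7 lower at 24 h and at 48 h, with 1 and 6 at 72 h. These collagens had 70% called at each time. The shares at 24, 48 and 72 h were 84.6%, 69.2% and 69.2% for procollagen-processing genes and 64.7%, 64.7% and 76.5% for ADAM shedding genes. Adamts substrates had 33.3%, 44.4% and 44.4%, at no time above the share of tested genes with a symbol. Col1a1 was -0.86 ± 0.09, -1.46 ± 0.08 and -0.79 ± 0.09, Col3a1 -0.75 ± 0.11, -1.15 ± 0.10 and -0.28 ± 0.11, and Col6a1 -0.43 ± 0.08, -0.82 ± 0.07 and -0.39 ± 0.08. Of 13 procollagen-processing genes 0 were higher and 11 lower at 24 h, 0 and 9 at 48 h, and 1 and 8 at 72 h. Pcolce2, an enhancer of procollagen C-proteinases, was -1.62 ± 0.08, -1.68 ± 0.07 and -1.95 ± 0.08, the C-proteinase gene Tll1 -1.52 ± 0.14, -1.11 ± 0.13 and -1.84 ± 0.14, and Loxl1 -0.76 ± 0.09, -0.97 ± 0.08 and -0.64 ± 0.09. Of 9 Adamts substrates 1 was higher and 2 lower at 24 h, 1 and 3 at 48 h, and 4 and 0 at 72 h, with the proteoglycan Vcan at -0.59 ± 0.09 at 48 h, Hspg2 at -0.37 ± 0.07 at 48 h and Thbs3 at 0.52 ± 0.06 at 72 h. Of 17 genes of ADAM shedding 3 were higher and 8 lower at 24 h and at 48 h, and 4 and 9 at 72 h, with App at 0.88 ± 0.07, Tspan17 at 0.78 ± 0.07 and Cx3cl1 at -0.61 ± 0.09 at 72 h.

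Fibroblast markers moved with treatment as well. Of 10 such markers, 2 of which are also in the collagen list, 0 were higher and 2 lower at 6 h, 0 and 9 at 24 h, 0 and 10 at 48 h, and 0 and 8 at 72 h. Beside these shares of 20%, 90%, 100% and 80%, 24.8%, 40.2%, 41.8% and 47.8% of all features were called. The markers' summed intensity was 713502 to 1013050 in the controls, 555689 to 858252 at 6 h, 589268 to 718425 at 24 h, 407960 to 644733 at 48 h and 586301 to 712026 at 72 h. Their part in the Mmp, Adam, Adamts and Timp values was not tested. The sums keep the dye and slide differences. Of 7 tested chondrocyte and osteoblast genes 1 was higher and 4 lower at 24 h, 0 and 5 at 48 h, and 0 and 4 at 72 h. Those shares were 71.4%, 71.4% and 57.1%. The 2 tested endothelial genes were both lower at 24 h and 1 was lower at 72 h, and of 3 epithelial genes 1, Krt19, was called at each time, lower at 6 and 24 h and higher at 48 and 72 h.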

How the data were processed

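The deposited scanner files give the median foreground and background intensity of each spot per channel, per the file headers read with Agilent Feature Extraction 10.7.3.1 (slide 1) or 11.0.1.1 (slide 2). The deposited series matrix holds log2 values processed by the authors; R 2.15 and limma are listed in the submitters' processing notes. Its columns have medians of 7 to 7.01 and correlate at 0.999 to 1 with the values computed here, so scale and direction are known and its centring steps are not; it served as an alternative only. From the intensities, R 4.3.3 and limma 3.58.1 computed normexp background correction (offset 50), loess within arrays, Aquantile between arrays and separate channels. Spots of a probe were averaged, and a gene was read by its brightest probe among those that cleared background in 4 or more of the 20 samples. The fit had group, dye and slide, the array as random block (correlation between channels 0.249) and eBayes moderation. Array number limits precision. The code was tested on simulated data.

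The members and gene lists were chosen with earlier results of these data known. Sample values were given for up to 4 members per family with the largest called change, for every Timp gene and for called members below background in a group. From each pathway list up to 3 genes were named by smallest adjusted p. Sample values of Mmp2, Adam10 and Adam15, and the cell markers named, were picked after their values were seen. Symbols came from RefSeq accessions through the RefSeq table of GRCm38.p6, while the headers name mm9, so no probe position is given. Between groups, sharing number and dye went with no pairing: deviations of such samples correlated at -0.56 to 0.17, over 0.1 in 1 of 40 pairs, against 0.28 to 0.79 for samples on 1 array. Samples of 1 group that share a number across the dyes were not compared. The independence of the 4 samples of a group therefore rests on their description and was not tested.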

Additional observations from a re-analysis of the deposited data

Results flagged for a closer look

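In 4 of 105 groups of 4 samples, 1 sample stood far from the other 3, with a gap above Dixon's critical value for its range; chance alone flags about 1 group in 20. For Adam23 control Cy5 replicate 2 read 10.87 and the others 10.7 to 10.72. For Adam12 the 72 h Cy5 replicate 2 read 8.25 and the others 8.06 to 8.09. For Adamtsl1 the 6 h Cy3 replicate 2 read 6.81 and the others 7.12 to 7.17. For Mmp13 the 48 h Cy5 replicate 2 read 6.48 and the others 6.18 to 6.21, and it lay on the array with the most spots well above background. Leaving out any of these 4 samples ended no call of the same gene against the control.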

How the results depend on the processing

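Each count and each of 408 changes (51 genes, 8 comparisons) was recomputed in up to 15 other settings and 20 fits that left out 1 sample. The array as a fixed block gave values for 6 h and 48 h against control and 72 h against 24 h alone, and the filter at 10 samples kept 44 of the genes; the fit with the array as a fixed block and the fit of every probe by itself were chosen after seeing the data. Of the 181 called changes, 74 lost their call or sign in at least 1 of them, and of the 227 others 188 stayed uncalled in all that gave a value. The 6 h count of 12 was 7 with the array as a fixed block and 7 with only the 2 groups, and the count of 12 between 24 h and 48 h was 3 with no scaling between arrays and 3 with no slide term. Leaving out 1 sample gave counts of 10 to 14 at 6 h, 19 to 26 at 24 h, 27 to 32 at 48 h and 27 to 31 at 72 h, with 20 to 26 between 6 h and 24 h, 8 to 14 between 24 h and 48 h, 19 to 25 between 48 h and 72 h, 21 to 23 between 24 h and 72 h, and 0 for the slide interaction. Adamts12 changed sign with no scaling between arrays (0.33 at 24 h, 0.33 at 72 h, 0.50 from 6 h to 24 h), with quantile scaling (0.43, 0.43 and 0.56) and, at 24 h and from 6 h to 24 h, with the mean over probes (0.04 and 0.10), never called, and its 2 probes differ in sign. In both scaling settings the brightest probe was chosen again, and the values lie near the 0.45 of the other probe at 24 h and 72 h. A change of probe and an effect of scaling cannot be told apart there. With the mean over probes Timp2 was -0.30 at 72 h and -0.19 from 6 h to 24 h, both called, again with probes that differ. Adam11 from 6 h to 24 h was 0.04 with no slide term, and the cause was not tested.

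With the replicate number as a block the counts were 12, 26, 31 and 30 against the control and 25, 10, 24 and 23 between treated times. That block joins samples of different groups that share number and dye, for which no pairing was seen. Signal over background limits Mmp3, Mmp13, Mmp24, Adam26a, Adamts16, Adamts17, Adamts18, Adamtsl1 and Timp4, and the 32 untested genes have no value here. The 24 h and 72 h comparisons with the control rest on scaling between arrays and on a slide term. The 48 h comparison also draws on the slide 1 controls through that term.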
